A study of Mus musculus with 16 samples.

Results

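The Zfp genes of the mouse carry the name zinc finger protein followed by a number, and they were followed here across 4 treatments of macrophages. Members were the detected probes whose symbol in the platform annotation begins with Zfp and a digit, leaving out Zfp36, Zfp36l1 and Zfp36l2, which are mRNA decay factors of another kind. A probe counted as detected where its detection p-value lay under 0.05 on both arrays of any treatment group. This gave 194 probes of 158 genes, among 12282 detected probes and 8365 detected genes in all. The array carried 375 such probes for 280 symbols, so 51.7% of the Zfp probes were detected, against 47.8% of all 25697 probes, and 122 Zfp genes were not detected. Nearest the limit, Zfp93 (detection p 0.0439) and Zfp128 (0.0476) fell just inside and Zfp334 (0.0501) and Zfp239 (0.0514) just outside, each by its best group.

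The cells were primary macrophages grown from the marrow of C57BL/6J mice, wildtype males 10 weeks old. They were held overnight in ethanol, the vehicle, or in 1 µM dexamethasone (Dex), a synthetic glucocorticoid, and then left alone or given lipopolysaccharide (LPS), a bacterial product that activates Toll-like receptor 4. The groups were therefore Dex plus LPS, LPS after vehicle, Dex alone and unstimulated vehicle, with 2 Illumina bead arrays each in an experiment with 3 h of LPS and in another with 6 h, 16 arrays in total. Both arrays of a group are labelled as technical replicates, so every p-value measures the spread between arrays and not between cultures or mice, and their small number sets the precision.

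Most proteins with Zfp names are built from C2H2 zinc fingers, short loops that hold a zinc ion and read a few bases of DNA each. Many also carry a KRAB domain, which recruits the corepressor Trim28 and, through it, histone methylation and heterochromatin to the bound site. A smaller number bind RNA, act in translation or ubiquitin transfer, or work as general transcription cofactors, so the shared name marks a kind of protein fold and not 1 pathway. Glucocorticoids and LPS both act on macrophages through transcription factors, the glucocorticoid receptor in the first case and chiefly NF-kB, AP-1 and interferon regulatory factors in the second.

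The promoters of 3 members are shown because these genes gave the changes described most fully below: Zfp658 rose with LPS and with Dex, Zfp94 fell with LPS in vehicle-treated cells and was higher with Dex under LPS, and Zfp763 had the largest fall with LPS. Each is the 250 bases before the gene's start in RefSeq on build GRCm38.p6, written 5′ to 3′ on the gene's strand. Zfp658 lies on the plus strand of chromosome 7 (chr7:43562120-43562369), Zfp94 on the minus strand of chromosome 7 (chr7:24316667-24316916) and Zfp763 on the minus strand of chromosome 17 (chr17:33033382-33033631). Capitals mark matches to the motifs searched: CCAAT and AGAACA, which is TGTTCT on the other strand, in Zfp658 (ATTGG being CCAAT on the other strand), TGCGCA in Zfp94 and CCAAT in Zfp763.
Zfp658: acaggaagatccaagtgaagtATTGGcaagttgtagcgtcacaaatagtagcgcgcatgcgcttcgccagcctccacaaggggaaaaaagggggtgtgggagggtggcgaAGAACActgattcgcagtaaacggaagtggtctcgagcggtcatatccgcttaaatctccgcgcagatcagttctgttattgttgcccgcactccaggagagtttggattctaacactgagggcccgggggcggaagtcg
Zfp94: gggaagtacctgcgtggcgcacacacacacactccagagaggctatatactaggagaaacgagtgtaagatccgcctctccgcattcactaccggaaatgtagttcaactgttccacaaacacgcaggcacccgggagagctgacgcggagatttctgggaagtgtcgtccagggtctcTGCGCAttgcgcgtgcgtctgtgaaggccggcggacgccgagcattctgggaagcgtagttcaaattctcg
Zfp763: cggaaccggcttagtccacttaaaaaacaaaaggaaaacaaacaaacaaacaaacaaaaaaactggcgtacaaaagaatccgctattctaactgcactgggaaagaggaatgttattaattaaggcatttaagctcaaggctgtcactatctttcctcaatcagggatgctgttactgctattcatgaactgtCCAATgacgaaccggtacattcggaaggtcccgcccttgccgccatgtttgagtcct

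A promoter sequence was at hand for 131 of the 158 members. On either strand and over the same 250 bases, CCAAT, the letters of the CCAAT box, occurred in 69 of them, which is 52.7%, against 40.9% of 6899 detected genes and 37.5% of 27018 genes in all. The core letters of the glucocorticoid receptor's element, TGTTCT, occurred in 15 members (11.5%), against 13.9% of detected genes and 18.2% of all genes. In Zfp658 this match began 140 bases before the start. TGCGCA, a palindrome bound by NRF1 and therefore counted once for both strands, occurred in 11.5% of members, 13.5% of detected genes and 7.37% of all genes. The AP-1 letters TGANTCA occurred in 6 members (4.58%, against 6.06% of detected genes and 7.82% of all). The ETS letters CCGGAAG occurred in 22 members (16.8%, against 16.4% and 7.83%) and TATAAA, the letters of the TATA box, in 7 (5.34%, against 8.44% and 14.3%). The marked matches do not overlap each other within the 3 sequences shown. GC content above 50% with an observed to expected CpG ratio above 0.6 held for 74 member promoters (56.5%), against 60.8% of detected genes and 30.7% of all. These are counts of letters, given with no test.

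On each array 142 to 180 Zfp probes were detected, 37.9% to 48% of those on the chip. Arrays of the same group varied with a median residual SD, on the log2 scale, of 0.158 for Zfp genes and 0.113 for all genes at 3 h, and of 0.226 and 0.202 at 6 h. All 8 macrophage markers on the array, among them Csf1r, Adgre1 and Lyz2, were detected in every group, and none of 4 T cell, 4 fibroblast, 2 mast cell and 2 dendritic cell markers was detected in any. All 5 neutrophil markers were detected in every group, with summed signals of 45499 to 49154 on the LPS arrays at 6 h, against 40639 to 56642 on the unstimulated arrays, so these ranges overlapped there. At 3 h they were apart, with 49631 to 54572 on Dex plus LPS arrays, against 35315 to 39111 on LPS arrays, and the part of these genes in the results was not tested. Macrophage marker sums were 279893 to 294388 on LPS arrays, against 215588 to 259755 on unstimulated arrays at 6 h. Of the B cell markers 1 of 2 was detected somewhere (Cd79b; 172 to 180 on LPS arrays, against 198 to 266 on unstimulated arrays at 6 h), and of the endothelial markers 2 of 3 (summed signals 314 to 317 on LPS arrays, against 327 to 368 on unstimulated arrays). For both lists the LPS arrays lay below the unstimulated ones. In Dex plus LPS against LPS, Cd79b gave 195 to 199, against 172 to 180, at 6 h and 199 to 202, against 175 to 193, at 3 h, and the endothelial sums were 319 to 334, against 372 to 412, at 3 h. The part of these lists in the results was not tested. The single erythroid marker on the array was not detected. In such bulk samples, fewer cells of a kind and less RNA per cell cannot be told apart.

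The 3 h experiment has arrays that go against their labels. Tnf, a cytokine gene induced by LPS, gave signals of 62118 ± 1035 on the arrays labelled Dex and 62659 ± 177 on those labelled unstimulated at 3 h, against 1890 ± 403 on unstimulated arrays at 6 h (SD, n = 2 each). Fkbp5, induced through the glucocorticoid receptor, stood at 239 ± 12.1 on the arrays labelled Dex and 239 ± 12.9 on those labelled unstimulated at 3 h, but at 1873 ± 155 with Dex plus LPS and 251 ± 33.8 with LPS. The comparison of Dex plus LPS with LPS at 3 h therefore shows a Fkbp5 difference in the direction of its labels, while the other 2 comparisons at 3 h rest on labels these genes contradict and are given only as "arrays labelled". Where results across many genes are given, a gene was called at a Benjamini-Hochberg adjusted p under 0.05 over all genes tested and at least 2-fold, in limma fits to the background-corrected, quantile-normalized log2 intensities. Of the 158 Zfp genes, 146 were tested at 6 h, 138 at 3 h and 126 in both, 99 were detected in all 8 groups and 59 only in some. Called in any comparison were 22 genes, and 136 never were.

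**Figure D1:**
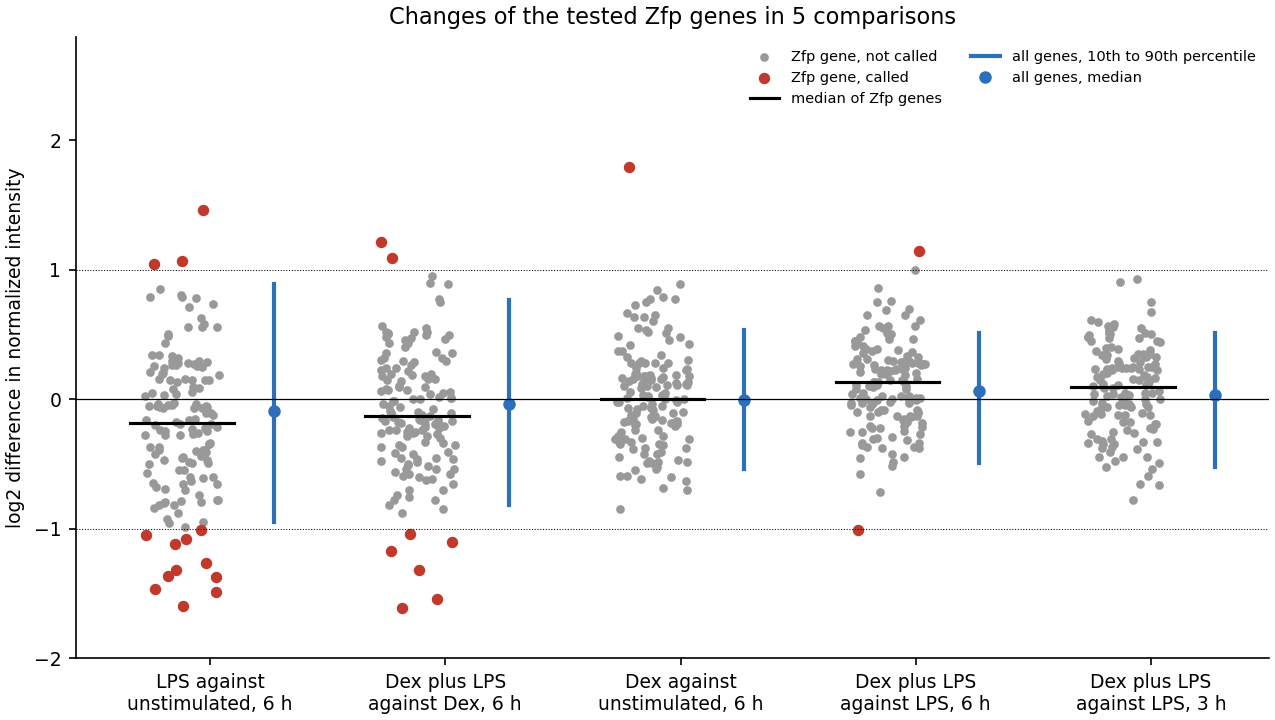
Log2 difference (y axis) of each tested Zfp gene in 5 comparisons (x axis), 146 genes at 6 h and 138 at 3 h; red points are called genes, the black line is the Zfp median, the blue bar and dot are the 10th to 90th percentile and the median of all genes, and dotted lines mark 2-fold. With LPS, 80% of Zfp genes lie between -0.90 and 0.53 and 80% of all genes between -0.95 and 0.89, and Zfp658 stands alone at 1.80 in the comparison of Dex with unstimulated cells.

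LPS for 6 h against no stimulus asked how the family responds to Toll-like receptor 4 activation. Of 146 Zfp genes tested, 3 were called higher (2.05%), where 8.36% of all 7791 genes were, and 11 were called lower (7.53%), where 8.75% of all genes were. Without the 2-fold minimum, 12 were higher (8.22%, against 16.2% of all genes) and 35 lower (24%, against 21.6%). The median change was -0.18 for Zfp genes and -0.09 for all genes. Among the 105 members detected in every 6 h group, 3 were higher (2.86%, against 7.43% of all such genes) and 8 lower (7.62%, against 7.85%). Scaling the arrays to a common median in place of quantile normalization moved the median of all genes to 0.05 and that of Zfp genes to -0.08, gave 3 higher and 7 lower Zfp genes, and turned the split of all called genes to 845 higher and 481 lower, against 651 and 682.

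Zfp658 had the largest rise with LPS. Its human counterpart ZNF658 is known as a zinc-responsive regulator that represses genes of zinc homeostasis. Its normalized log2 level was 8.06 and 7.91 on the LPS arrays, against 6.27 and 6.77 on the unstimulated arrays. Both LPS arrays lay above both unstimulated arrays, and the difference of 1.47 ± 0.20 (SE) had a limma adjusted p of 0.000349, a 2.76-fold rise. Zfp738 had 9.61 and 9.37 with LPS, against 8.40 and 8.44 in unstimulated cells. These groups did not overlap either, and Zfp738 rose by 1.07 ± 0.18 (limma adjusted p = 0.00108). Zfp236 had 10.36 and 10.55 with LPS, against 9.67 and 9.16 in unstimulated cells, a rise of 1.04 ± 0.21 (limma adjusted p = 0.0035). A second detected probe of Zfp236 was at 0.15 ± 0.22 in the fit of every probe (adjusted p = 0.635), so the rise of Zfp236 rests on 1 of its 2 detected probes. Without either LPS replicate 2 or unstimulated replicate 2, Zfp236 was under 2-fold, at 0.94 and 0.79, and so was Zfp738 without LPS replicate 1, at 0.95.

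**Figure D2:**
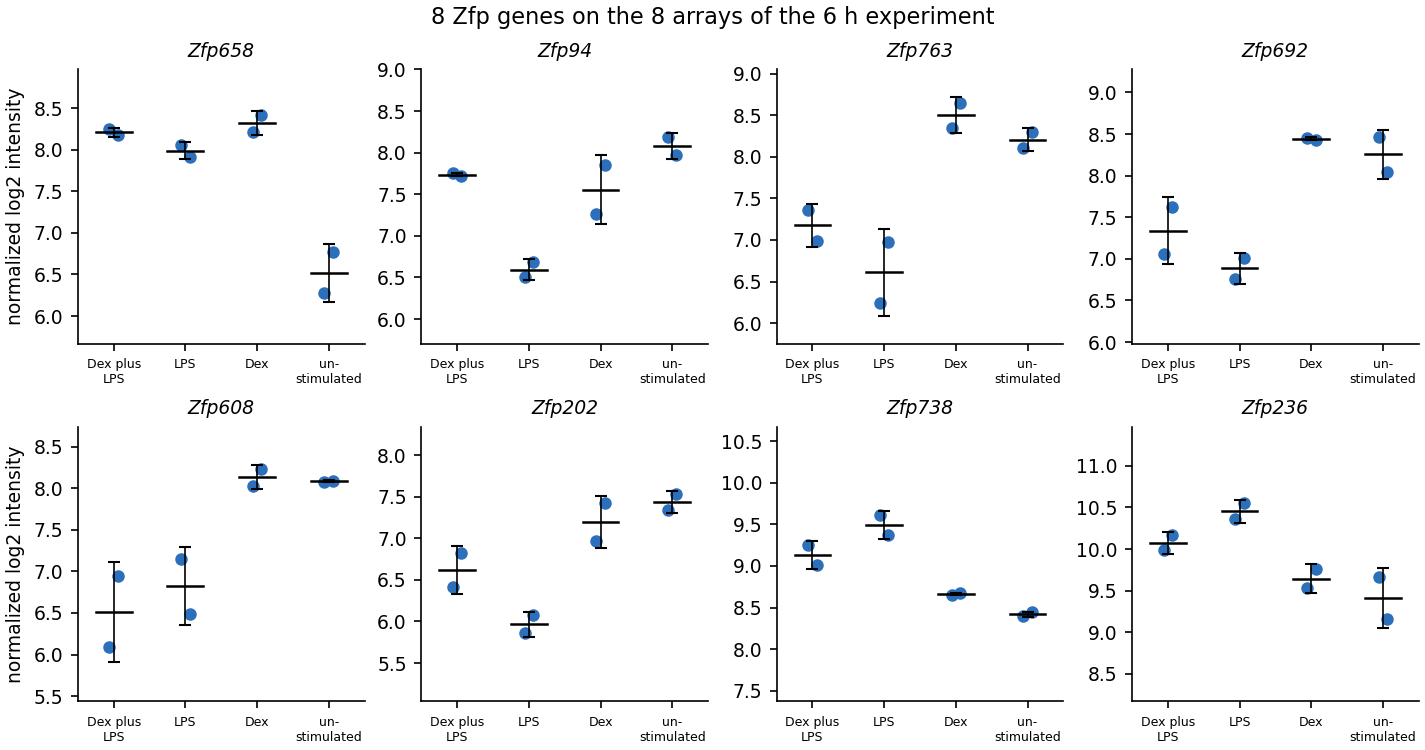
Normalized log2 intensity (y axis, each panel spanning the same range) of 8 Zfp genes on the 8 arrays of the 6 h experiment, with the groups Dex plus LPS, LPS, Dex and unstimulated on the x axis; points are arrays, the line is the group mean and bars are the SD (n = 2). Zfp658 is low only on the unstimulated arrays, at 6.27 and 6.77, and Zfp94 only on the LPS arrays, at 6.50 and 6.68.

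Among the 11 genes that fell with LPS, Zfp763 fell most. Its level was 6.24 and 6.98 on the LPS arrays, against 8.11 and 8.30 on the unstimulated arrays. The LPS arrays differed from each other by more than the unstimulated arrays did, but all lay below them, and Zfp763 fell by 1.60 ± 0.26 (limma adjusted p = 0.000926), with a second probe at -1.44 ± 0.21 in the fit of every probe. Zfp94 had 6.50 and 6.68 with LPS, against 8.19 and 7.97 in unstimulated cells. The spread within its groups was small beside the gap, and Zfp94 fell by 1.49 ± 0.22 (limma adjusted p = 0.000505), a 2.81-fold fall. Zfp692, whose human counterpart represses genes of glucose production, had 6.76 and 7.01 with LPS, against 8.47 and 8.05 in unstimulated cells. Neither pair overlapped the other, and both detected probes of Zfp692 fell, by 1.37 ± 0.23 (limma adjusted p = 0.00125) and by 1.07 ± 0.30 in the fit of every probe.

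Among these 11 genes, 3 were not above background on either LPS array, so their fall has only a lower bound, which sets the unstimulated mean against the lowest detected level of the LPS arrays. Zfp202, whose human counterpart ZNF202 represses lipid transport genes such as ABCA1, was at least 2.43-fold lower (limma adjusted p = 0.000576). It had measured levels of 5.86 and 6.08 on the LPS arrays, against 7.34 and 7.53 on the unstimulated arrays. Zfp951 was at least 1.78-fold lower (limma adjusted p = 0.000706), with 5.91 and 5.35 on the LPS arrays, against 7.10 and 6.88 on the unstimulated arrays. In both genes the LPS and unstimulated arrays were apart by more than their own spread.

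Zfp608, known in mouse thymocytes as a repressor of the Rag recombinase genes, had 7.15 and 6.49 with LPS, against 8.08 and 8.09 in unstimulated cells. It fell by 1.26 ± 0.29 (limma adjusted p = 0.00736), and without LPS replicate 2 the change was -0.93 and no longer passed (adjusted p = 0.0773). Zfp579 had 8.24 and 7.97 with LPS, against 9.41 and 9.44 in unstimulated cells, and fell by 1.32 ± 0.27 (limma adjusted p = 0.00348). Zfp12 had 9.03 and 8.81 with LPS, against 10.20 and 9.88 in unstimulated cells, and fell by 1.12 ± 0.21 (limma adjusted p = 0.00245). The remaining 3 stood near the 2-fold limit. Zfp398, whose human counterpart binds estrogen receptor alpha, is the third gene with only a bound and was at least 1.03-fold lower (limma adjusted p = 0.00334), with its probe above background on 1 of 2 unstimulated arrays and a fitted difference of -1.08. Zfp251 fell by 1.05 ± 0.23 and Zfp747 by 1.01 ± 0.21, and Zfp747 is named beyond the 10 largest changes because it completes the count. Each of these 3 dropped out of the calls under median scaling (-0.98, -0.94 and -0.88), and so did Zfp12 (-0.97). Leaving out LPS replicate 2 or unstimulated replicate 2 took Zfp398, Zfp251 and Zfp747 below 2-fold or past the p threshold, with values of -0.76 to -0.99.

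Some members lie next to each other in the genome. In RefSeq, 37 members formed 22 pairs of direct neighbours, and of the 18 pairs tested at 6 h, 12 had the same sign with LPS. Since 93 of all 146 members had a negative change, members that are not neighbours often share a sign too. The share for such pairs was not taken, so the count does not set neighbours apart. In the run Zfp93, Zfp61 and Zfp94, Zfp93 was at least 1.15-fold lower and Zfp61 at least 1.31-fold lower with LPS, neither being above background on the LPS arrays, beside the 2.81-fold fall of Zfp94. All 3 had adjusted p under 0.05 (0.0209, 0.0231 and 0.000505 in limma), and Zfp93 and Zfp61 are named after their values were seen. Zfp398 lies beside Zfp282, which was at -0.78 (limma adjusted p = 0.057), and Zfp692 beside Zfp672, which was at -0.54 (limma adjusted p = 0.0243). Zfp871 was at 0.85 (limma adjusted p = 0.0313) and its neighbour Zfp811, not above background in unstimulated cells, did not pass (limma adjusted p = 0.0921).

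Under Dex, the LPS response was measured by comparing Dex plus LPS with Dex alone at 6 h. Of 146 members, 2 were called higher (1.37%, against 6.75% of all genes) and 6 lower (4.11%, against 6.74%). Without the 2-fold minimum, 7 were higher (4.79%, against 13.5% of all genes) and 17 lower (11.6%, against 15.8%). Among the 105 members detected in every group, 1 was higher (0.952%, against 6.09% of all such genes) and 3 lower (2.86%, against 5.57%). Zfp608 fell most, with 6.09 and 6.94 in Dex plus LPS cells, against 8.03 and 8.23 in Dex cells. It fell by 1.62 ± 0.29 (limma adjusted p = 0.00238). Zfp763 had 7.36 and 6.99 with Dex plus LPS, against 8.34 and 8.65 with Dex, and fell by 1.32 ± 0.26 (limma adjusted p = 0.00344). Zfp692 had 7.05 and 7.62 with Dex plus LPS, against 8.46 and 8.43 with Dex, and fell by 1.11 ± 0.23 (limma adjusted p = 0.00526), though its second probe was at -0.28 ± 0.30 and without Dex plus LPS replicate 1 its value was -0.82 (adjusted p = 0.0655). These 3 genes were the ones called lower with LPS both after vehicle and after Dex, in arrays that the comparisons do not share.

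The other 3 genes lower in Dex plus LPS cells were less well measured. Zfp810 had 5.44 and 6.30 in Dex plus LPS cells, against 7.70 and 7.12 in Dex cells, a fall of 1.54 ± 0.41 (limma adjusted p = 0.0171) in which 1 of 2 Dex plus LPS arrays was above background; it did not pass without Dex plus LPS replicate 1 (-1.12, adjusted p = 0.157) or without Dex replicate 1 (-1.26, adjusted p = 0.099). Zfp101 had 6.48 and 6.51 in Dex plus LPS cells, against 7.64 and 7.69 in Dex cells, and fell by 1.17 ± 0.23 (limma adjusted p = 0.00422). Zfp704 was at least 1.77-fold lower (limma adjusted p = 0.00463), with 5.78 and 5.82 in Dex plus LPS cells, where it was not above background, against 7.11 and 6.57 in Dex cells, and -0.77 without Dex replicate 1. Of the 2 genes called higher, Zfp131, a BTB-type zinc finger factor, had 10.73 and 11.16 in Dex plus LPS cells, against 10.29 and 9.42 in Dex cells. Zfp131 rose by 1.09 ± 0.30 (limma adjusted p = 0.0191), and lost its call without Dex plus LPS replicate 2 (0.88) or Dex replicate 2 (0.66). Zfp811 was not above background in Dex cells and was at least 1.95-fold higher with Dex plus LPS (limma adjusted p = 0.0039), with 6.95 and 6.86, against 5.70 and 5.69. The probe of Zfp811 was above background on both arrays only in Dex plus LPS cells at 6 h. That of Zfp810 was so only in Dex cells at 6 h. Both genes were thus tested only through the group where they were high, so the detection rule favours these differences.

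**Figure D3:**
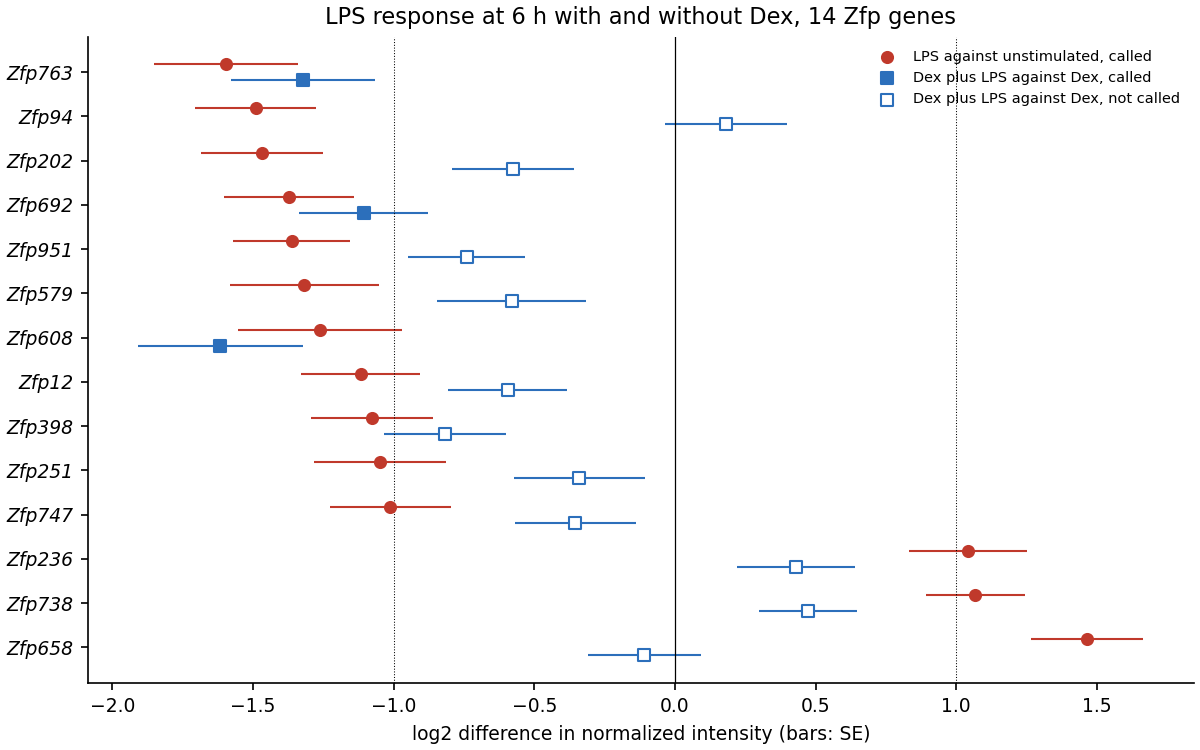
Log2 difference with its SE (x axis) for the 14 Zfp genes called in the comparison of LPS with unstimulated cells at 6 h (y axis), with that comparison as red circles and Dex plus LPS against Dex as blue squares; filled symbols are called and dotted lines mark 2-fold. Of the squares, 12 lie on the same side of 0 as their circle, 3 of them called, while Zfp94 and Zfp658 lie near 0, at 0.18 and -0.11.

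Set side by side, the LPS effect after Dex had the same sign as that after vehicle in 110 of 146 members (75.3%), where it had in 75% of 7791 genes. Across genes, which are not independent replicates, the Pearson correlation of these changes was 0.652 for members and 0.821 for all genes. Of the 14 members called after vehicle, 12 kept their sign after Dex and 3 were called there too (21.4% of the 14, and 37.5% of the 8 called after Dex), while among all genes 53.9% of those called after vehicle were called. These 2 comparisons share no array but were normalized together.

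Dex alone against unstimulated cells at 6 h called 1 member higher (0.685%, against 1.63% of all genes) and 0 lower (against 1.89% of all genes). This comparison shares its unstimulated arrays with that of LPS. The single call was Zfp658. Its level was 8.22 and 8.42 in Dex cells, against 6.27 and 6.77 in unstimulated cells. Every Dex array lay above every unstimulated array, and Zfp658 rose by 1.80 ± 0.20, which is 3.47-fold (limma adjusted p = 0.000874). The median change of members was 0.0014 and that of all genes -0.0097. At an unadjusted p under 0.05 in limma, 16 members were higher (11%, against 12% of all genes) and 15 lower (10.3%, against 12.8%). At adjusted p under 0.05 of any size, 1 was higher (against 3.22% of all genes) and 1 lower (against 3.58%), and Zfp275, at -0.85 ± 0.20 (limma adjusted p = 0.0328), was the lower one, below 2-fold and named after its value was seen. With median scaling all genes shifted up by about as much as members did (medians 0.27 and 0.32). Then 5 members were called higher, and over all genes 414 were, against 127 with quantile normalization.

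Dex plus LPS against LPS asked what Dex changes in stimulated cells, and at 6 h it shares the LPS arrays with the comparison of LPS with unstimulated cells. At 6 h, 1 member was called higher (0.685%, against 1.31% of all genes) and 1 lower (0.685%, against 2.45%). Without the 2-fold minimum, 2 were higher (against 3.21% of all genes) and 1 lower (against 4.61%). Zfp94 had 7.75 and 7.72 in Dex plus LPS cells, against 6.50 and 6.68 in LPS cells. Its arrays agreed closely within each group, and Zfp94 rose by 1.15 ± 0.22 (limma adjusted p = 0.0111). Zfp319 was not above background in Dex plus LPS cells, with 5.60 and 5.46, against 6.75 and 6.33 in LPS cells, and was at least 1.44-fold lower (limma adjusted p = 0.0209). Without any of these 4 arrays neither gene passed, with adjusted p of 0.0655 to 0.109 for Zfp94 and 0.0527 to 0.174 for Zfp319. The median change was 0.13 for members and 0.06 for all genes, and under median scaling 0.29 and 0.20, with 3 members higher and 0 lower.

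At 3 h the same comparison called 0 members higher and 0 lower at 2-fold (against 1.16% and 2.28% of all genes). At an unadjusted p under 0.05 in limma, 31 were higher (22.5%, against 23.5% of all genes) and 16 lower (11.6%, against 20%). At adjusted p under 0.05 of any size, 20 were higher (14.5%, against 17% of all genes) and 9 lower (6.52%, against 14.7%). The members with the largest changes below are named after their values were seen. Zfp667 was not above background in LPS cells and was at least 1.28-fold higher with Dex plus LPS (limma adjusted p = 0.0177), with 6.18 and 5.81, against 4.81 and 5.32. Its probe was above background on both arrays only in Dex plus LPS cells at 3 h. Zfp667 was thus tested only through the group where it was high, so the detection rule favours this difference. Zfp658 had 8.17 and 8.09 in Dex plus LPS cells, against 7.58 and 7.52 in LPS cells. Those arrays did not overlap, and Zfp658 rose by 0.58 ± 0.09 (limma adjusted p = 0.00539). Zfp637 rose by 0.61 ± 0.11, Zfp276 by 0.59 ± 0.10 and Zfp282, whose human counterpart is a repressor that binds a leukemia virus promoter, by 0.57 ± 0.08. Zfp763 had 5.79 and 6.41 with Dex plus LPS, against 5.43 and 5.28 with LPS, where it was not above background, and was at least 1.38-fold higher (limma adjusted p = 0.0288). Zfp94, the gene called higher at 6 h, had 5.69 and 6.64 with Dex plus LPS at 3 h, against 5.74 and 5.93 with LPS. Those arrays overlapped, and the difference was 0.33 ± 0.33 (limma adjusted p = 0.488).

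Of the members lower at 3 h, Zfp160 had 8.16 and 7.92 in Dex plus LPS cells, against 8.76 and 8.87 in LPS cells. Zfp160 fell by 0.78 ± 0.14 (limma adjusted p = 0.00959). Zfp382, whose human counterpart is a KRAB repressor, fell by 0.66 ± 0.10 (limma adjusted p = 0.00565). Zfp236, which rose with LPS at 6 h, fell by 0.45 ± 0.12 (limma adjusted p = 0.0313), and its second probe fell by 0.40 ± 0.08 in the fit of every probe. Zfp809, which silences retroviruses in mouse embryonic cells, had 6.25 and 6.30 with Dex plus LPS, against 6.80 and 6.70 with LPS, and fell by 0.47 ± 0.09 (limma adjusted p = 0.0108).

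**Figure D4:**
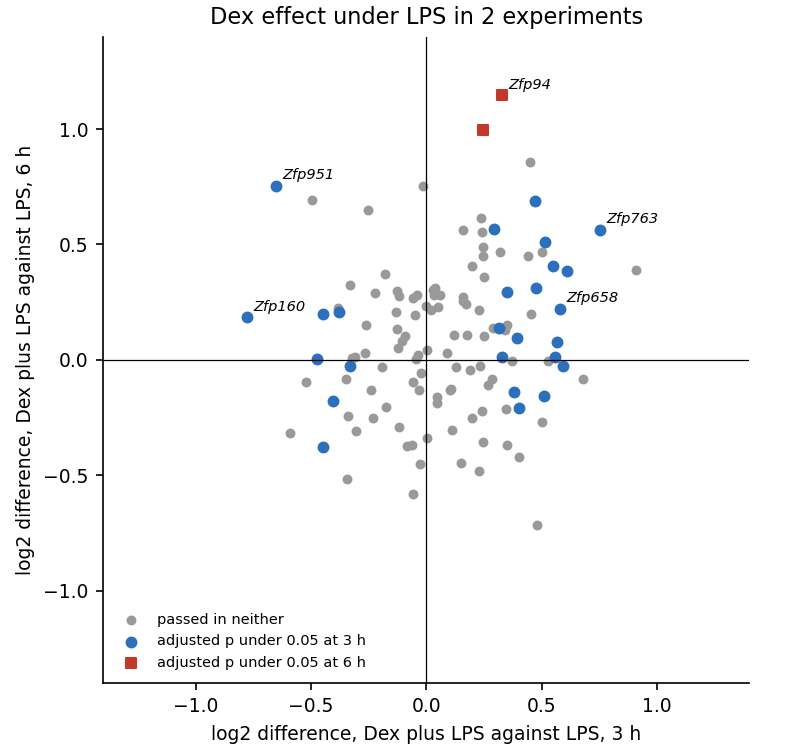
Log2 difference of Dex plus LPS against LPS at 3 h (x axis) and at 6 h (y axis) for the 126 Zfp genes tested in both; blue points had adjusted p under 0.05 at 3 h, red squares at 6 h, and grey points at neither time. The points form no line: 68 of 126 have the same sign at both times and 0 passed at both, and Zfp951 lies at -0.65 and 0.76.

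Those experiments share no array, so their Dex effects can be set against each other. The sign was the same in 68 of 126 members (54%) and in 65.2% of 7458 genes, with a Pearson correlation across genes of 0.138 for members and 0.587 for all genes. Of 26 members that passed at 3 h, 17 had the same sign at 6 h (65.4%), as did 1917 of 2438 among all genes (78.6%). Of the members 2 passed at 6 h, and 0 had adjusted p under 0.05 at both times, while 404 of the 7458 genes did, 589 passing at 6 h. In the test of the difference itself, 8 members were lower at unadjusted p under 0.05 in limma (6.35%, against 8.54% of all genes) and 12 higher (9.52%, against 9.55%). Called were 1 member higher (0.794%, against 0.295% of all genes) and 0 lower (against 0.442%). That member was Zfp951. It had 5.46 and 5.26 in Dex plus LPS cells at 3 h, against 6.05 and 5.97 in LPS cells, and 6.40 and 6.37 in Dex plus LPS cells at 6 h, against 5.91 and 5.35 in LPS cells. The fitted Dex effect at 6 h minus that at 3 h was 1.41 ± 0.26 (limma adjusted p = 0.0384). Its probe was above background on no Dex plus LPS array at 3 h and no LPS array at 6 h, so that size is not measured on both sides, and the single effects have the bounds at least 1.19-fold lower with Dex plus LPS at 3 h and at least 1.17-fold higher at 6 h.

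The difference between the Dex effect with LPS and the Dex effect without it was tested at 6 h. It called 1 member higher (0.685%, against 0.193% of all genes) and 1 lower (0.685%, against 0.372%). For Zfp94 the Dex effect was 1.15 ± 0.22 with LPS and -0.53 ± 0.22 without, a difference of 1.67 ± 0.30 (limma adjusted p = 0.047). For Zfp658 it was 0.22 ± 0.20 with LPS and 1.80 ± 0.20 without, a difference of -1.57 ± 0.28 (limma adjusted p = 0.0466). With the replicate number as a block both differences missed the threshold (adjusted p = 0.0904 and 0.0877). Leaving out single arrays ended the call of Zfp94 in 7 of 8 cases and that of Zfp658 in 6 of 8. In the levels, Zfp658 stood at 8.21 ± 0.05 with Dex plus LPS, 7.99 ± 0.10 with LPS, 8.32 ± 0.14 with Dex and 6.52 ± 0.35 unstimulated (SD, n = 2 each). Zfp94 stood at 7.74 ± 0.02, 6.59 ± 0.13, 7.56 ± 0.42 and 8.08 ± 0.16 in the same groups.

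At 3 h, arrays labelled LPS against arrays labelled unstimulated gave 2 members higher (1.45%, against 2.08% of all genes) and 0 lower (against 0.834% of all genes). At unadjusted p under 0.05 in limma, 26 were higher (18.8%, against 21.5% of all genes) and 25 lower (18.1%, against 24.7%). Zfp385a, an RNA-binding protein and p53 target also called Hzf, had 8.09 and 7.99 on arrays labelled LPS, against 6.87 and 6.56 on arrays labelled unstimulated, a difference of 1.33 ± 0.12 (limma adjusted p = 0.00106). At 6 h the same probe was at -0.39 ± 0.21 and a second probe at 0.53 ± 0.19 with LPS, neither at 2-fold. Zfp280b had 7.33 and 7.51 on arrays labelled LPS, against 6.11 and 6.14 on arrays labelled unstimulated, a difference of 1.29 ± 0.12 (limma adjusted p = 0.00133). Arrays labelled Dex against arrays labelled unstimulated at 3 h gave 1 member higher, again Zfp280b (7.42 and 7.09 on arrays labelled Dex; difference 1.13 ± 0.12, limma adjusted p = 0.0089; against 0.535% of all genes), and 0 lower (against 0.224%). At unadjusted p under 0.05 in limma, 19 were higher (13.8%, against 16.8% of all genes) and 9 lower (6.52%, against 15.4%). Given the Tnf signals above, what separates these arrays cannot be told from their labels.

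After all 16 arrays were normalized together, the members called at 6 h could be placed on a scale on which 0 is the unstimulated and 1 the LPS mean at 6 h. Zfp94 stood at 1.44 on arrays labelled LPS and at 1.29 on those labelled unstimulated at 3 h, and Zfp763 at 1.70 and 1.56. Zfp738 stood at 0.31 on arrays labelled LPS and at 0.80 on those labelled unstimulated, and Zfp658 at 0.57 and 0.45. On the arrays labelled unstimulated at 3 h, 13 of these 14 genes lay nearer the LPS mean of the 6 h experiment than its unstimulated mean, and Zfp658 was the exception. The count was 14 on arrays labelled Dex and 13 on those labelled LPS and Dex plus LPS. Over all genes called at 6 h, the median place on the arrays labelled unstimulated at 3 h was 0.82 for the 651 higher and 0.80 for the 682 lower genes. As levels set across experiments, these values hold the difference between experiments as well.

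Members were also read by role. Of 14 RNA, translation, mitosis, ubiquitin or SUMO proteins listed, 11 were tested at 6 h and 0 were called with LPS, where 8.36% of all genes were higher and 8.75% lower, and the median change was 0.21, against -0.09 over all genes. On arrays labelled LPS at 3 h, 1 of 11 was called higher, which is Zfp385a, described above. The 1 member with adjusted p under 0.05 at 6 h was Zfp91, a ubiquitin ligase of the noncanonical NF-kB pathway, with 9.66 and 9.26 in LPS cells, against 8.43 and 8.90 in unstimulated cells, and a rise of 0.79 ± 0.23 (limma adjusted p = 0.0218), below 2-fold. Of 17 transcription factors and cofactors listed, 10 were tested at 6 h and 0 called with LPS, beside the same shares over all genes, with a median of -0.05. Zfp217, a cofactor found in repressor complexes, was at least 1.17-fold lower (limma adjusted p = 0.0165) and not above background on either LPS array. Its probe was above background on both arrays only in unstimulated cells at 6 h, so it was tested only through the group where it was high. Zfp281, a factor known from pluripotent mouse cells, rose by 0.39 ± 0.09 with Dex plus LPS against LPS at 3 h (limma adjusted p = 0.0168) and was at 0.09 ± 0.20 at 6 h. Of 7 imprinting and retroelement silencers listed, only Zfp809 was tested.

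Genes listed as partners in KRAB silencing, DNA methylation proteins among them, were read beside the Zfp genes. Of 22 symbols listed, among which Tasor and Fam208a name the same gene, 12 genes were tested at 6 h. With LPS, 2 fell and 0 rose (against 8.75% and 8.36% of all genes), with a median of -0.34. These were Dnmt1, the maintenance DNA methyltransferase, by 1.59 ± 0.20 (limma adjusted p = 0.000197) and Uhrf1, which brings it to replicating DNA, by 1.60 ± 0.27 (limma adjusted p = 0.00127). Both also fell after Dex, by 1.29 ± 0.20 and 1.63 ± 0.27 in Dex plus LPS against Dex. Trim28, the KRAB corepressor, was at 0.32 ± 0.18 with LPS at 6 h (limma adjusted p = 0.2) and fell by 0.34 ± 0.08 with Dex plus LPS against LPS at 3 h (limma adjusted p = 0.0243). Of genes with other C2H2 family names (Klf, Sp, Zbtb, Zscan and the like, a pattern that also takes in Sp140, which has no such fingers), 43 were tested at 6 h, with 2 higher and 3 lower with LPS (against 8.36% and 8.75% of all genes). Klf9, a known glucocorticoid receptor target, rose by 2.19 ± 0.32 at 6 h and 1.95 ± 0.11 at 3 h in Dex plus LPS against LPS, larger than any change of a Zfp gene in those comparisons.

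**Figure D5:**
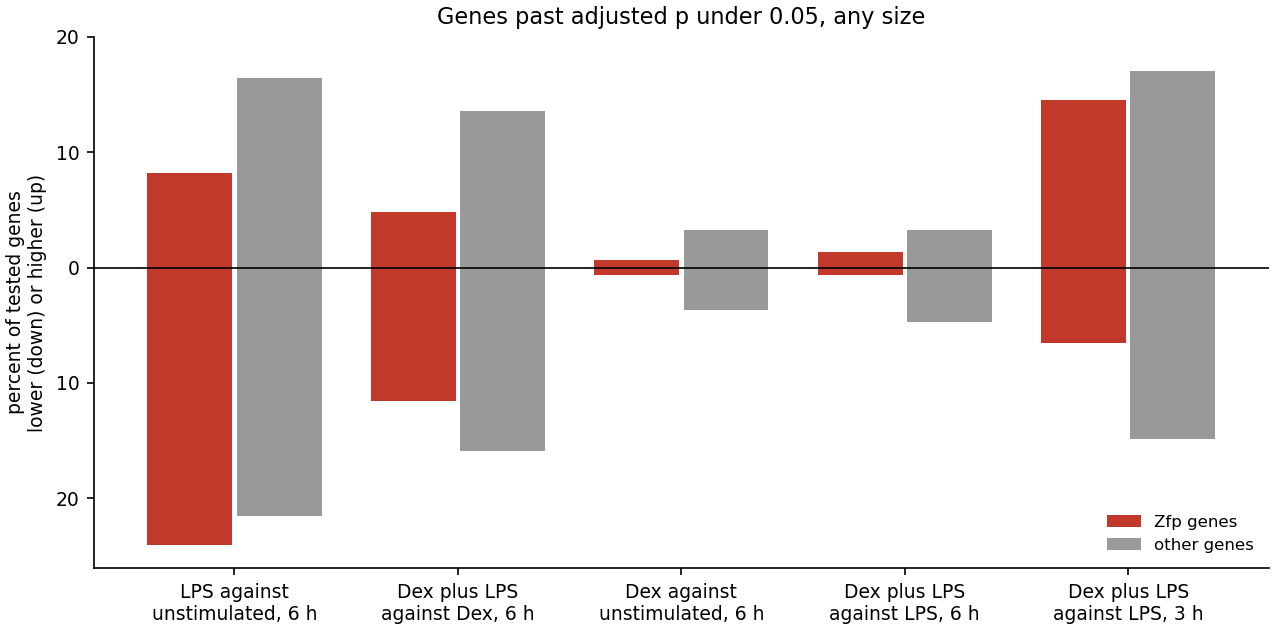
Percent of tested genes with adjusted p under 0.05 at any size (y axis, higher above 0 and lower below it) in 5 comparisons (x axis), for Zfp genes in red and all other genes in grey. With LPS at 6 h, 8.22% of Zfp genes were higher and 24% lower, against 16.4% and 21.5% of other genes.

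Of the members 31 had several detected probes, at most 3. With LPS at 6 h, 18 of 25 such genes tested had probes of 1 sign, as did 18 of 25 in Dex plus LPS against Dex. For Dex against unstimulated this held for 14 of 25, and for Dex plus LPS against LPS for 15 of 25 at 6 h. At 3 h it held for 18 of 27 in Dex plus LPS against LPS. For the non-additive effect, 11 had probes of 1 sign and 14 of opposite signs. None had probes called in opposite directions in these 6 comparisons, where probes were fitted singly.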

How the data were processed

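RNA of 16 samples was hybridised to Illumina mouse arrays, and groups were taken from sample titles. Per the file headers, the authors deposited unnormalized tables with an intensity, still holding background, and a detection p-value per probe and array. The submitters' processing notes name GenomeStudio without a version. Another deposited table has the intensity after cubic spline normalization by the authors, but its ranks do not follow the unnormalized 6 h table (Spearman 0.863 to 0.895), and Fkbp5 lay at 361 to 464 on all 8 arrays there, so it holds other measurements. The authors' value table ranked the 3 h arrays as the unnormalized table does (correlation 1; column medians 167 each, to 3 digits). Its 6 h columns, as deposited by the authors, behaved as log2 intensity centred per probe (slope 1, column medians -0.20 to 0.16, 4003 probes empty). Scale, centring and direction came from these comparisons. Both tables served only as alternatives. Another 32 columns were not used.

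Background was corrected with limma 3.58.1 (R 4.3.3; normexp from detection p-values, offset 16), followed by quantile normalization within an experiment and log2. The detected probe with the highest mean stood for a gene. Fits used lmFit and eBayes over the 8 arrays of an experiment, or all 16 for the difference between times. Procedures were tested on simulated data. Genes were named by the platform annotation, and all 158 matched RefSeq. Promoters are from RefSeq. No protein sequences were used here. Members and lists were chosen with earlier results of these data known. Named were up to 10 called genes per direction and comparison, list members past the test or as examples, and others where stated. Alternatives varied scaling, background, detection, probes, fold, arrays, replicate block and deposited table.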

Additional observations from a re-analysis of the deposited data

Results flagged for a closer look

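In 3 tests of a difference between effects, a Zfp gene passed. Zfp658 had a Dex effect that was smaller with LPS than without it at 6 h, by -1.57 ± 0.28 on the log2 scale (limma adjusted p = 0.0466). All 4 arrays with LPS and both Dex arrays lay between 7.91 and 8.42, while the unstimulated arrays lay at 6.27 and 6.77. For Zfp94 the Dex effect was larger with LPS than without it, by 1.67 ± 0.30 (limma adjusted p = 0.047), and the LPS arrays at 6.50 and 6.68 lay below the other 6 arrays. Zfp951 had a Dex effect under LPS that was larger in the 6 h than in the 3 h experiment, by a fitted 1.41 ± 0.26 (limma adjusted p = 0.0384). Time and experiment cannot be told apart there. The size is not measured on both sides, since its probe was above background on none of the Dex plus LPS arrays at 3 h or the LPS arrays at 6 h. All 3 adjusted p-values lie close to the threshold.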

How the results depend on the processing

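Every count rests on 2 arrays a group, and many Zfp signals lie near background, so the size of a fold depends on how background is handled. Over 402 values of 31 gene results under the alternatives run, 258 kept direction and call, 139 kept direction but lost the call, and 5 reversed. Without background correction, 2 of 31 stayed called, but 27 kept direction and adjusted p under 0.05; in the authors' processed values these were 2 and 28 of 31, with median scaling 26 and 31 of 31, and without the detection filter 25 and 25 of 31. The cubic spline table kept 1 call of 27, with 15 past the adjusted p. These 27 values are among the 402, although that table holds other measurements. With every probe fitted singly, which refits the same probes, 31 of 31 stayed called. At detection p under 0.01 only 28 results had a value, and all 28 stayed called. The total of 402 is therefore no measure of how robust the calls are.

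The reversed values were Zfp738 (-0.23), Zfp747 (0.026) with LPS, Zfp319 (0.15) with Dex plus LPS against LPS and Zfp811 (-0.16) with Dex plus LPS against Dex in the cubic spline table, which holds other measurements, and Zfp398 (0.16) with LPS when no detection filter let another probe stand for the gene. For LPS against unstimulated at 6 h, higher and lower counts were 0 and 1 without background correction, 12 and 35 with no fold minimum, 1 and 0 in the authors' processed values, 7 lower with median scaling and 0 lower in the cubic spline table. Leaving out arrays gave 2 to 8 higher and 8 to 16 lower, with 8 higher without unstimulated replicate 2. For Dex against unstimulated at 6 h, 5 were higher with median scaling, 0 in both of the authors' tables, 1 lower with no fold minimum, and 1 to 6 higher and 0 to 2 lower without single arrays (2 lower without Dex replicate 2). For Dex plus LPS against LPS at 6 h, 3 were higher and 0 lower with median scaling, 0 and 0 without background correction and in both of the authors' tables, 2 higher with no fold minimum, 0 lower at detection p under 0.01 and among genes detected in every group (a setting chosen after seeing the data), and 0 and 0 without any array. At 3 h, 20 were higher and 9 lower with no fold minimum, and 0 to 1 higher and 0 lower without single arrays (1 without either Dex plus LPS array or LPS array B). For Dex plus LPS against Dex, 0 and 0 were called without background correction, 1 higher without the detection filter, 7 and 17 with no fold minimum, 1 and 0 in the authors' processed values, 0 lower in the cubic spline table, 1 and 3 among genes detected in every group, and 1 to 3 higher and 4 to 8 lower without single arrays (1 higher without Dex plus LPS replicate 2).

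For the non-additive effect, 0 and 0 were called without background correction, without the detection filter and in both of the authors' tables. Over all genes, 15 were higher and 29 lower in the fit described above, and 21 and 51 without background correction. They were 9 and 12 without the detection filter, 18 and 70 in the authors' processed values, and 0 and 0 in the cubic spline table. Without single arrays the calls changed, among members and among all genes. For the Dex effect at 6 h minus 3 h, 0 were higher without background correction, without the detection filter, at detection p under 0.01 and in the authors' processed values, 2 higher and 1 lower with only the arrays of the contrast, and 0 to 1 higher and 0 lower without single arrays (0 without 7 of the 8). For arrays labelled LPS against those labelled unstimulated at 3 h, 4 were higher with median scaling, 0 without background correction and in the authors' processed values, 18 higher and 16 lower with no fold minimum, 2 lower with every probe fitted on its own, and 2 to 4 higher and 0 to 1 lower without single arrays (4 without LPS array A, 1 lower without LPS array B). For arrays labelled Dex against those labelled unstimulated at 3 h, 2 were higher with median scaling, 0 without background correction, in the authors' processed values and with only the arrays of the contrast, 11 higher and 4 lower with no fold minimum, and 0 to 2 higher and 0 lower without single arrays (0 without Dex array A, 2 without unstimulated array A). With no fold minimum, 13% of members were higher and 11.6% lower on arrays labelled LPS at 3 h, against 16.4% and 18.4% of all genes. On arrays labelled Dex at 3 h these shares were 7.97% and 2.9%, against 7.83% and 5.52% of all genes. Counts not given stayed within 1.5 times. Calls over all genes moved with these settings as well. For LPS against unstimulated at 6 h, 651 higher and 682 lower became 421 and 353 without background correction. For Dex plus LPS against LPS at 6 h, 102 and 191 became 35 and 103 there. For Dex plus LPS against Dex, 526 and 525 became 341 and 255. A lone array of a group was assumed to vary like the other groups. Beyond the settings' own construction, the cause was not tested.

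With the replicate number as a block at 6 h, 0 members were called higher and 0 lower for the non-additive effect, and the counts of the other 6 h comparisons stayed the same (3 and 11 with LPS). Correlations of replicate differences between groups were -0.22 for unstimulated and Dex, and -0.067 to 0.0091 for the other pairs of groups. None lay clearly above 0, so no shared replicate effect was seen. The source of the value of -0.22 was not tested. No block was fitted at 3 h, because the column names there carry the letters A and B and no replicate number.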

Other observations

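The cubic spline table, whose arrays are labelled as the same 6 h samples but hold other measurements, gives a further reading of the 14 Zfp genes called with LPS. Of these, 12 had the same direction there and 10 also had an adjusted p under 0.05 in limma, with smaller changes. The share of all genes called with LPS that did so was not taken, so these counts do not set Zfp genes apart. Zfp763 was at -0.69, Zfp12 at -0.76, Zfp251 at -0.60, Zfp94 at -0.52 and Zfp608 at -0.46, each LPS against unstimulated, while Zfp658 was at 0.38. Zfp738 (-0.23) and Zfp747 (0.026) had the other sign. That table keeps background in its values, and no source used here says whether it was made from the same RNA. Zfp41 was the 1 gene with adjusted p under 0.05 just short of 2-fold in Dex plus LPS against LPS at 6 h, at 1.00 ± 0.25 (limma adjusted p = 0.0383).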
